A study of Mus musculus with 2 samples.

Results

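Somatostatin-rich cells of the Sim1 lineage were chosen by their UMI counts (unique molecular identifiers, 1 for each captured RNA molecule) from a Drop-seq study of the newborn mouse hypothalamus. A cell was taken when it had at least 300 detected genes, at least 5 Sst UMIs, fewer than 2 Crh UMIs, fewer than 10 Avp UMIs and fewer than 10 Oxt UMIs. The rule took 104 of 5260 cells, of which 60 came from the control library and 44 from the Sim1 heterozygous library. The levels of Sst, Crh, Avp and Oxt in these members are therefore a product of the choice and are given only as a description.

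The study pooled hypothalami of 6 CD-1 pups per genotype at postnatal day 1 to 4 and sorted viable cells that carried the red fluorescent protein tdTomato. The control pups carried Sim1-Cre and the tdTomato reporter Ai14, and the Sim1 heterozygous pups carried Sim1-Cre, the reporter and a loss of 1 copy of Sim1. Both groups thus share the Cre transgene and the reporter, which stays on in any cell whose precursors expressed Sim1-Cre, whether or not Sim1 is still made. There was 1 library per genotype, so each difference between them compares 2 libraries of pooled pups and not 2 conditions, no p-value is given, and intervals (95%) cover counting error only.

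Somatostatin is a secreted peptide that inhibits hormone release. Its neurons in the periventricular and paraventricular hypothalamus send axons to the median eminence, and the peptide reaches the pituitary through portal blood, where it restrains growth hormone secretion. Sim1 and Otp are transcription factors required for the development of several neuroendocrine cell types of this region, among them those that make Crh, Avp, Oxt, Trh and Sst.

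The gene that defines these cells is shown first by its promoter, because every member was taken for its Sst transcripts. The stretch below is the 250 bases before the RefSeq start of Sst (GRCm38.p6, chr16:23890845-23891094, minus strand, written 5′ to 3′), and the capitals mark the palindrome TGACGTCA, the cAMP response element through which this promoter is classically known to be induced. The GENCODE M21 model of Sst begins further upstream, at position 23890958, so the last part of the stretch, with the palindrome, lies within that model.
Sst: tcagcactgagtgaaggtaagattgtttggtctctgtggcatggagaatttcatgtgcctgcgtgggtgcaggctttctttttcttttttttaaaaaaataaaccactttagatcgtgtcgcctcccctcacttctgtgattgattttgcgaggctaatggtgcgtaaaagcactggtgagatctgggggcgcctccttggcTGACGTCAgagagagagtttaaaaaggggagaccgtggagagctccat
The motif occurred 1 time in the Sst window, from base 203, with 40 bases between its end and the RefSeq start site. The same 8 letters, which read alike on both strands and were searched with no other motif, were present in 588 of 32851 RefSeq windows of 300 bases (1.79%) and in 229 of the 5599 genes with a window among those compared below (4.09%). Of the 15 genes named below as higher in the members, 12 had a window, and 0 of these 12 held the motif. A match is a description of letters and not of a bound site.

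The control library held 2807 barcodes with 6525080 UMIs and the Sim1 heterozygous library 2476 barcodes with 5397693 UMIs, and 0 barcode sequences were shared by both. No doublet caller was run, so doublets are taken as present. Growth hormone transcripts separated the libraries in every kind of cell: Gh UMIs were found in 20 of 60 control members (33.3%), 931 of 2746 other control cells (33.9%) and 15 of 38 glia-like control cells (39.5%), and in 0 of 44 members and 0 of 2410 other cells of the Sim1 heterozygous library. Cells were called glia-like when they had at least 10 UMIs of astrocyte and radial glia genes and more of these than of neuron genes. The Gh share of the members was thus at or below that of glia-like cells, and Gh UMIs are read as background. Sst UMIs were found in 0 of 38 glia-like control cells (which allows a share of up to 7.89%) and 1 of 50 glia-like Sim1 heterozygous cells, at median depths of 1253 and 866 UMIs. These cells are too few to set a background below the 3.39% and 3.32% of all other cells with an Sst UMI.

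Members made up 2.14% of control cells (95% Clopper-Pearson interval 1.64% to 2.74%) and 1.79% of Sim1 heterozygous cells (1.31% to 2.40%). The ratio of the shares, Sim1 heterozygous over control, was 0.839 (interval 0.555 to 1.26), so no difference was detectable at this depth. The ratio passed to the other side of 1 when at least 10 Sst UMIs were asked for (1.19), when only cells with at least 800 genes were used (1.12), and when cells were thinned to 857 UMIs and at least 2 Sst UMIs were asked for (1.03).

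Sst transcripts were concentrated in few cells. The members held 730 of the 896 control Sst UMIs (81.5%) and 717 of the 881 Sim1 heterozygous Sst UMIs (81.4%). In the control library a member had from 5 to 50 Sst UMIs, with a median of 8, and in the Sim1 heterozygous library from 5 to 80, with a median of 11. Relative to a cell's own depth the medians were 55.7 and 63.6 Sst UMIs per 10000 UMIs. Control members were mostly near the minimum, 34 with 5 to 9 UMIs, 18 with 10 to 19 and 8 with at least 20, whereas the Sim1 heterozygous members were spread more evenly, with 17, 14 and 13 cells in these ranges. The members were also deeper in the Sim1 heterozygous library, with a median of 2522.5 UMIs (513 to 8249) against 1965.5 (754 to 9930), and the other cells had medians of 1555 and 1771.5 UMIs. How far depth set the spread of Sst UMIs was not tested.

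**Figure D1:**
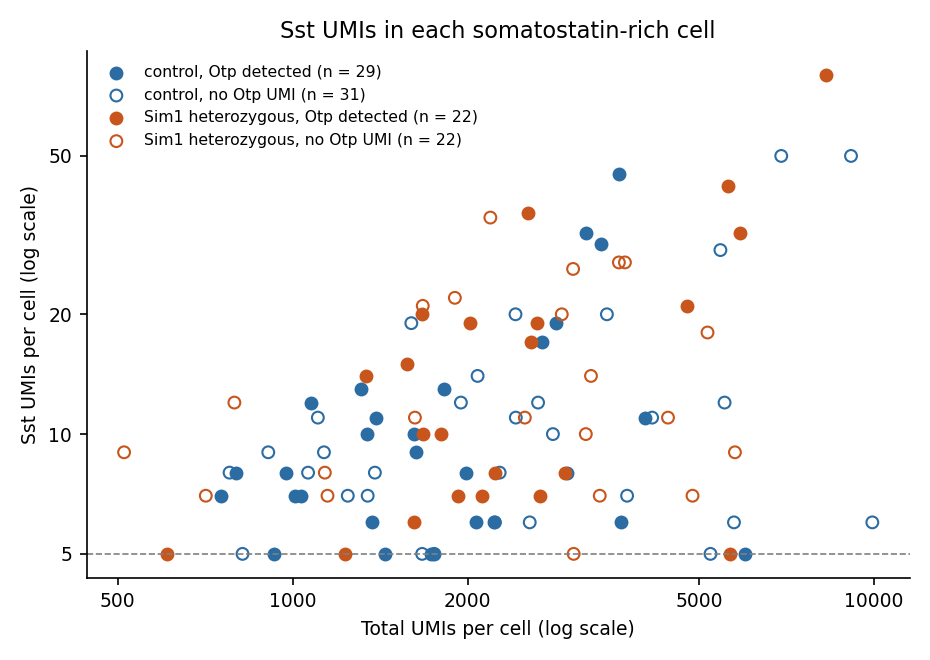
Sst UMIs (y axis, log scale) against total UMIs (x axis, log scale) of each of the 104 members, by library, with filled points for cells in which Otp was detected. The dashed line is the minimum of 5 Sst UMIs; the highest cell has 80 Sst UMIs, and cells with and without an Otp UMI lie over the same range.

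Just inside the minimum, 17 control and 5 Sim1 heterozygous cells had 5 or 6 Sst UMIs, and their summed Otp levels were 333 and 329 CPM (UMIs per 1000000 UMIs of the same cells). Just outside it, 14 and 15 cells had 3 or 4 Sst UMIs, with Otp at 432 and 477 CPM. Foxb1, a mammillary factor, had 1 UMI in the cells just inside and 3 UMIs in those just outside. The limits on the other hormones mattered little, since they removed 1 control cell with high Avp or Oxt and 1 Sim1 heterozygous cell with Crh.

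The label of these cells was checked against its second marker, Otp, and against the targeted gene Sim1. Otp had 60 UMIs in the control members and 54 in the Sim1 heterozygous members, which is 384 and 436 CPM, against 348 and 219 in all other cells. The log2 ratio of members over other cells was 0.16 in the control library (interval -0.25 to 0.51) and 1.02 in the Sim1 heterozygous library (0.57 to 1.39). In the control library the summed Otp level therefore did not mark these cells beyond counting error. By cells, Otp was detected in 29 of 60 control members (48.3%) and 22 of 44 Sim1 heterozygous members (50%), against 28.7% and 17.0% of the other cells, and in 1 glia-like cell of each library. At 857 UMIs per cell, which left out 4 members of each library, the shares were 30.4% and 25% of the members against 20.7% and 11.4% of the other cells. Sim1, the gene whose loss of 1 copy defines the Sim1 heterozygous group, had 19 and 15 UMIs in the members, 122 and 121 CPM. In the other cells it was at 112 and 91.0 CPM. The log2 ratio of Sim1 heterozygous over control members was 0.01 (interval -1.09 to 1.05), an interval that holds both no change and a 2-fold loss. Tags from the 3′ end of Sim1 may not check the genotype, since the deleted part is unstated in the labels.

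The members had the transcripts of neurons. Of 12 measured genes common to neurons, 0 were at least 2-fold higher or lower than in other cells. Of all genes compared below, 0.881% were higher and 1.01% lower. Stmn2, a microtubule regulator of growing neurons, was detected in 60 of 60 control and 43 of 44 Sim1 heterozygous members. Slc17a6, the vesicular glutamate transporter of the hypothalamus, was found in 29 of 60 and 28 of 44 members, at 487 and 621 CPM against 609 and 787 in other cells. A UMI of Gad1, Gad2 or Slc32a1, which make or load GABA, was present in 7 control members (11.7%) and 6 Sim1 heterozygous members (13.6%), against 4.52% and 5.31% of other cells. Of these, 4 and 5 members also had Slc17a6 and only 3 and 1 had GABA genes alone. The 15 astrocyte and radial glia genes summed to 461 and 412 CPM against 759 and 928 in other cells, with 9 and 8 of the 15 at 0, among them Slc1a3 and Aqp4 in both libraries. Mt3 gave 34 of the 72 control UMIs of this list and was at 218 CPM against 118, a log2 ratio of 0.92. Genes of oligodendrocytes were at 70.5 and 72.6 CPM against 107 and 91.0, and those of microglia at 19.2 and 24.2 against 41.5 and 26.8. Genes of vessels were at 6.41 and 0 against 21.2 and 9.11, those of fibroblasts at 12.8 and 8.07 against 36.6 and 3.61, and those of red cells at 0 and 0.

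Genes of the somatostatin system other than Sst were scarce. The receptor Sstr2 had 6 UMIs in each library, 38.4 and 48.4 CPM against 16.0 and 14.2 in other cells, but was below the limit for comparison. Sstr1 had 4 and 3 UMIs, Sstr4 had 0 and 1, and Sstr3 and Sstr5 had 0 in both. Cort, the paralogue of Sst, had 0 and 1 UMIs. Of Irx3 and Irx5, which the title of the series names, the members held 2 Irx3 UMIs in 1 control cell and 0 UMIs otherwise.

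Members were then compared with all other cells of their own library. Levels are summed UMIs in CPM, the log2 ratio used a pseudocount of 1 UMI, and a gene was called when it was at least 2-fold higher, or lower, in both libraries. Of 7601 genes with at least 100 UMIs in each library, 67 were higher (0.881%) and 77 lower (1.01%). The median log2 ratio of all these genes was 0.11 and 0.13, and scaling by the median of gene ratios gave 38 higher and 100 lower. A gene at the minimum was expected to have only 2.39 control and 2.30 Sim1 heterozygous UMIs in the members, so a ratio at that level rests on very few molecules. Of the called genes, 18 of the 67 higher and 39 of the 77 lower also had intervals that left out 0 in both libraries. The 15 higher and 8 lower genes described next were taken from the far end of these intervals.

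**Figure D2:**
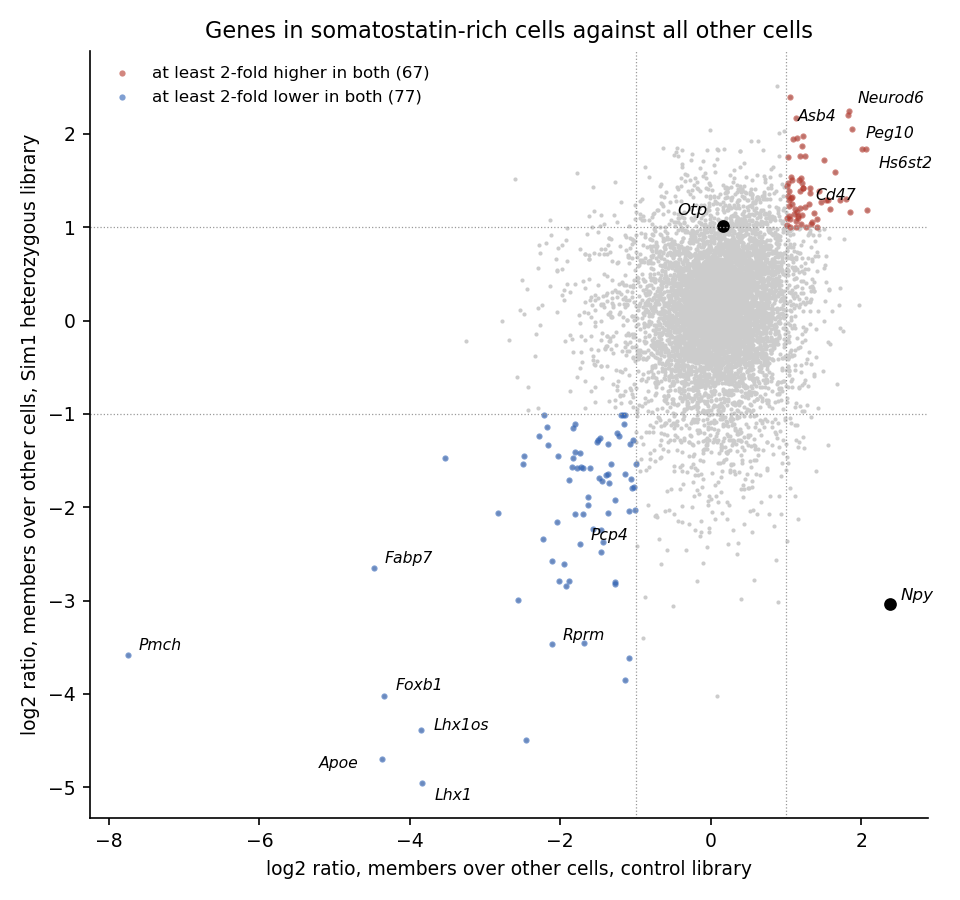
Log2 ratio of members over other cells in the control library (x axis) and the Sim1 heterozygous library (y axis) for 7601 genes. Called genes are coloured, 67 higher and 77 lower; dotted lines mark 2-fold, and Otp and Npy are black. Hs6st2, Peg10, Asb4 and Neurod6 lie at the upper right, and Foxb1, Lhx1 and Apoe at the lower left.

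The gene with the highest interval was Hs6st2, which adds sulfate to heparan sulfate chains (mm10, chrX:51387212-51681856, minus strand). It had 101 control and 72 Sim1 heterozygous UMIs in the members, 647 and 581 CPM against 156 and 165 in other cells. The log2 ratio was 2.07 (interval 1.75 to 2.35) and 1.84 (1.45 to 2.17). These UMIs came from few cells, 13 and 12, and the cells with the most had 28 and 14. At 857 UMIs per cell, Hs6st2 was found in 19.6% and 20% of members against 10.6% and 9.49% of other cells.

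Peg10 and Asb4 lie in 1 imprinted cluster of chromosome 6 and were both higher, the only 2 of 17 measured imprinted genes that were. Of all 7601 genes, 0.881% were higher. Peg10, a paternally expressed gene derived from a retrotransposon (mm10, chr6:4747306-4760517, plus strand), had 117 and 61 UMIs, 749 and 492 CPM against 188 and 140. Its log2 ratio was 2.01 (interval 1.71 to 2.27) and 1.84 (1.42 to 2.20), and it was found in 25 of 60 and 15 of 44 members. Asb4, a maternally expressed adaptor of ubiquitin ligases (mm10, chr6:5383386-5433022, plus strand), had 43 and 54 UMIs, 275 and 436 CPM against 76.8 and 107. Its log2 ratio was 1.87 (interval 1.36 to 2.29) and 2.05 (1.60 to 2.43), from 18 and 13 members.

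Other genes of the same stretch were looked at after these values were seen. Calcr, the calcitonin receptor (mm10, chr6:3685680-3764714, minus strand), was below the limit for comparison but had 11 and 12 UMIs in 8 members of each library. That is 70.5 and 96.9 CPM against 14.8 and 13.1, a log2 ratio of 2.37 (interval 1.20 to 3.16) and 2.98 (1.87 to 3.78). The genes between and beside them were closer to the other cells. Casd1, an acetyltransferase of sialic acids, was at 0.18 and 0.09 on the log2 scale, Sgce, a sarcoglycan, at 0.26 and 1.10, Ppp1r9a, a cytoskeletal scaffold of synapses, at 0.82 and 0.12, and Dync1i1, a dynein chain, at 0.22 and 0.43. The most abundant imprinted genes differed less. Nnat, a small membrane protein of the endoplasmic reticulum, was at 0.41 and 0.51, and Meg3, a long noncoding RNA, at -0.29 and -0.52.

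The named higher genes included Neurod6 and Arid5b. Neurod6, a helix-loop-helix factor best known from forebrain glutamatergic neurons, had 21 and 14 UMIs in 10 and 7 members. Its level was 135 and 113 CPM against 39.1 and 25.4, a log2 ratio of 1.84 (interval 1.07 to 2.43) and 2.24 (1.24 to 2.95). Arid5b, a DNA-binding factor, had 15 and 24 UMIs and a log2 ratio of 1.05 and 2.40. Of 13 measured factors of the paraventricular and periventricular nuclei, 0 were higher and 3 lower, where 0.881% and 1.01% of all genes were. The lower ones were the homeobox genes Pou3f3 (log2 ratio -1.03 and -1.28), Zfhx3 (-3.53 and -1.48) and Zfhx4 (-2.02 and -2.79). Zic1, a zinc finger factor, was at 0.20 and 1.04.

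Cd47, a surface protein that inhibits engulfment by phagocytes, had 99 and 90 UMIs in 36 of 60 and 26 of 44 members, more widely spread than Hs6st2. Its level was 634 and 726 CPM against 275 and 264, a log2 ratio of 1.22 (interval 0.90 to 1.50) and 1.47 (1.14 to 1.77). Pcdh11x, a protocadherin, was at 1.50 and 1.72 on the log2 scale, and Ajap1, a protein of adherens junctions, at 1.30 and 1.25. Gabrg3, a subunit of GABA receptors, was at 1.22 and 1.42, Kcnip4, which binds potassium channels, at 1.08 and 1.24, and Sphkap, which anchors protein kinase A, at 1.80 and 1.30. Of 13 control UMIs of Sphkap, 7 came from 1 cell, without which its log2 ratio in that library was 0.80. Leaving out a member cell can lower a ratio but not raise it. The lower named genes therefore could not fail the next step and are all within its count, so it tests only the higher ones. Without the member cell with the most UMIs of each gene, 16 of the 23 named genes kept at least 2-fold in both libraries. Besides Sphkap, those that did not were Kcnip4 (0.63 and 0.90), Trim35 (0.76 and 0.78), Arid5b (0.86 in the control library), Pam (0.95 in the control library), Polr3gl (0.98 in the control library) and Ajap1 (0.97 in the Sim1 heterozygous library). The remaining 3 named genes were Tmem255a, a membrane protein (1.83 and 2.21), Polr3gl, a subunit of RNA polymerase III (1.18 and 1.50), and Trim35, a ubiquitin ligase (1.01 and 1.03).

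Of 15 measured genes for making and storing peptides, 2 were higher and 0 lower, where 0.881% and 1.01% of all genes were. Pam, the enzyme that amidates peptide ends, had 26 and 29 UMIs in 18 and 17 members, 167 and 234 CPM against 76.0 and 92.1, a log2 ratio of 1.18 (interval 0.50 to 1.70) and 1.39 (0.75 to 1.89). Pam overlaps 2 genes on its own strand that had 8 and 3 member UMIs, and how counting used strand is unstated. Pcsk1, a prohormone convertase, had 9 and 8 UMIs and a log2 ratio of 1.58 and 1.20, the second with an interval that took in 0 (-0.20 to 2.05). Cpe, the carboxypeptidase of peptide granules, was at -0.41 and -0.36, and Scg2, a granule protein, at 0.11 and 0.62. The medians of the list were 0.21 and 0.25, beside 0.11 and 0.13 for all genes.

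Of 11 measured genes for other neuropeptides, 0 were higher and 5 lower, where 0.881% and 1.01% of all genes were. The lower ones were Nts, Cartpt, Pmch, Cck and Trh. Cck had 33 and 35 UMIs, 211 and 282 CPM against 484 and 626, and all of them were in 11 control and 7 Sim1 heterozygous members. Pmch, the melanin-concentrating hormone precursor, had 0 and 3 UMIs, and with a floor of 3 UMIs over the members it was at least 71.3-fold lower in the control library. Npy differed in direction between the libraries: it had 34 UMIs in 4 control members and 0 in the Sim1 heterozygous members, and 29 of the 34 came from 1 cell.

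Foxb1 and Lhx1, transcription factors of the mammillary region, were among the lowest genes in the members. Foxb1 had 3 and 6 UMIs, 19.2 and 48.4 CPM against 522 and 920, a log2 ratio of -4.35 (interval -7.04 to -3.22) and -4.03 (-5.69 to -3.12). Lhx1 had 2 and 1 UMIs and a log2 ratio of -3.84 and -4.95, and the neighbouring noncoding gene Lhx1os was at -3.85 and -4.38. Foxp1 and Lhx5, also transcription factors of the mammillary region, were not 2-fold lower in both libraries, at -1.03 and 0.39 and at -0.33 and 0.03. Rprm, an inhibitor of the cell cycle, was at -2.11 and -3.46, and Pcp4, a calmodulin-binding peptide, at -1.73 and -2.40. Among glial genes, Apoe had 0 UMIs in both libraries and was at least 6.90-fold and 8.66-fold lower, and Fabp7 had 0 and 2 UMIs.

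Of 21 measured axon guidance genes, 1 was higher (Unc5d, a netrin receptor) and 3 lower (Plxna2, Epha4 and Epha7), where 0.881% and 1.01% of all genes were. Of 24 adhesion genes, 0 were higher and 1 lower, Tenm2, a teneurin at -1.63 and -1.89 on the log2 scale. Nrxn3, a neurexin, was at 1.11 and 0.82. Of 12 calcium-binding genes 1 was called, Pcp4, while Calb2 (calretinin) had 79 and 92 UMIs, 506 and 743 CPM against 310 and 263, a log2 ratio of 0.72 and 1.51. Of 16 synaptic vesicle genes 0 were called, with medians of 0.31 and 0.40, and Rab3c, a vesicle GTPase, was at 0.77 and 1.36.

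The contrast was smaller against other cells with Otp. Against only the 788 control and 410 Sim1 heterozygous other cells with an Otp UMI, a comparison added after the data were seen, 8 of the 23 named genes kept at least 2-fold in both libraries. The levels in those cells were higher for Peg10 (317 and 296 CPM) and lower for Foxb1 (47.7 and 123). The log2 ratios of Hs6st2 (2.02 and 1.83), Neurod6 (2.21 and 1.64), Cd47 (1.12 and 1.29) and Asb4 (1.04 and 1.06) stayed past 2-fold, as did those of Pcdh11x (1.35 and 1.08), Tmem255a (1.44 and 1.73), Lhx1 (-1.54 and -2.67) and Lhx1os (-1.52 and -2.05). Peg10 was at 1.25 and 0.75, Foxb1 at -0.91 and -1.13 and Pcp4 at -0.63 and -1.24.

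The members also differed from cells chosen by another hormone of the Otp lineage. These were 43 and 41 cells with at least 2 Crh UMIs, 130 and 28 with at least 10 Avp or Oxt UMIs, and 21 and 17 with at least 5 Trh UMIs. Otp was lower in the members (384 and 436 CPM) than in the Crh-rich cells (556 and 589) and the Trh-rich cells (700.5 and 827). The Poisson intervals of members and Crh-rich cells overlapped. In the Avp- or Oxt-rich cells Otp was at 731 and 402. Hs6st2 was at 647 and 581 CPM in the members, 302 and 276 in Trh-rich cells, 35.6 and 244 in Crh-rich cells and 19.1 and 64.8 in Avp- or Oxt-rich cells. Peg10 was also highest in the members, with 749 and 492 CPM, followed by 302 and 381 in Trh-rich cells, then 21.4 and 112 in Crh-rich cells and 68.2 and 13.0 in Avp- or Oxt-rich cells. Trh-rich cells were thus the nearest of the 3 to the members for both genes, and their Poisson intervals for Peg10 in the Sim1 heterozygous library overlapped.

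By summed level, Neurod6 separated the members from all 3 sets, although only 10 of 60 and 7 of 44 members had a UMI of it. It had 135 and 113 CPM in the members and at most 13.6 in any of the 3 sets, with 0 UMIs in the Trh-rich cells of both libraries. Dlk1, an imprinted Notch-pathway ligand, had 186 and 105 CPM in the members, below the 520 and 700.3 of Crh-rich cells and the 644 and 699.9 of Avp- or Oxt-rich cells, while Trh-rich cells had 60.4 and 144. Pou3f2, a POU factor of Crh, Avp and Oxt neurons, was at 44.8 and 72.6 in the members, 121 and 203 in Crh-rich cells, 276 and 311 in Avp- or Oxt-rich cells and 0 in Trh-rich cells. Pam did not separate the sets, at 167 and 234 in the members and between 128 and 311 in the others. Kcnip4 was lower in the members (89.7 and 145 CPM) than in Avp- or Oxt-rich cells (169 and 415). Gabrg3, at 109 and 113 in the members, was at 109 and 158 in Trh-rich cells and 99.8 and 91.3 in Crh-rich cells.

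**Figure D3:**
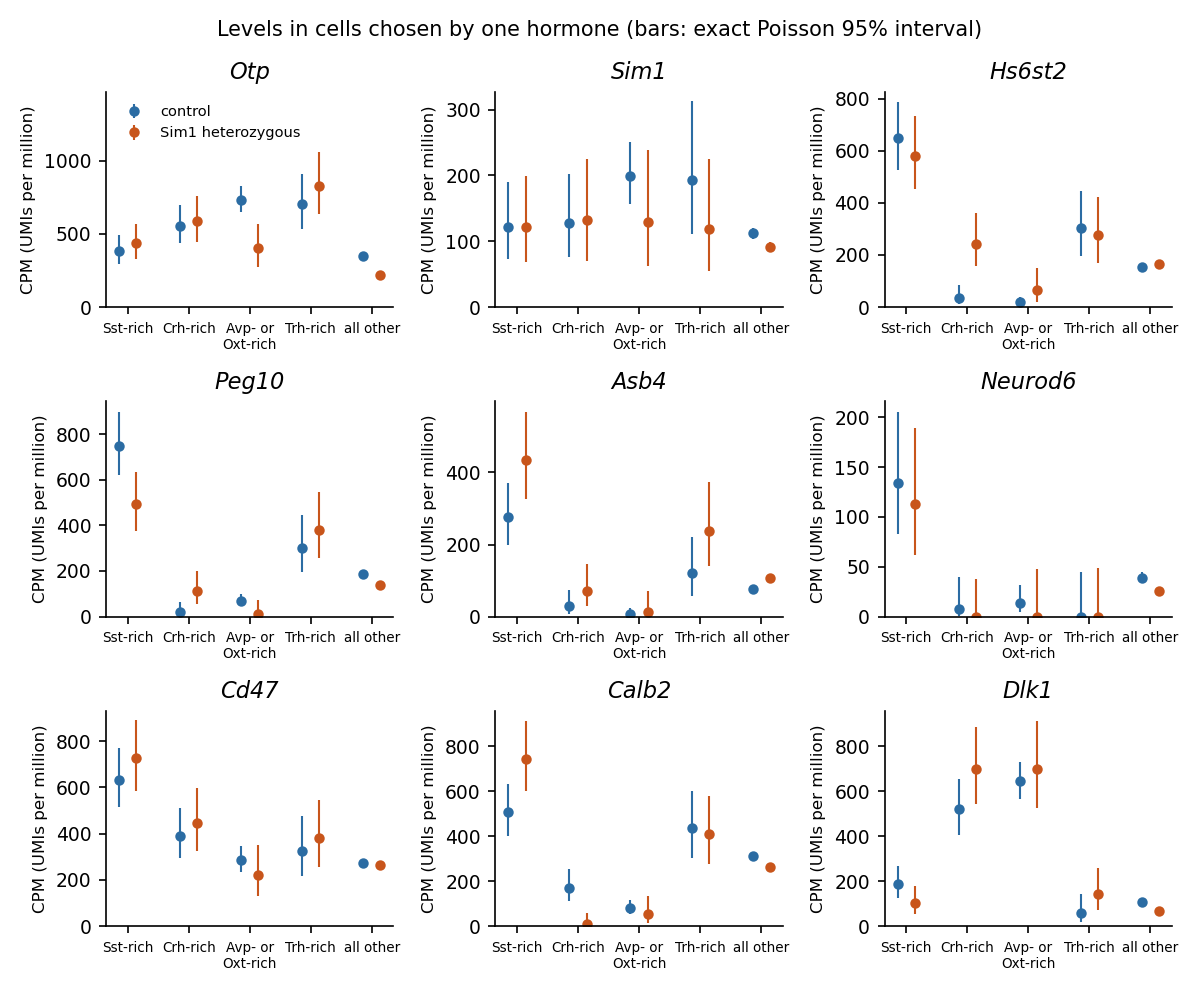
Summed level (CPM, y axes from 0) of 9 genes in members and in cells chosen by another hormone, by library, with exact Poisson 95% intervals as bars. Neurod6 stands at 135 and 113 in the members and at or near 0 in the 3 other hormone sets, and Dlk1 is highest in the Crh-rich and the Avp- or Oxt-rich cells.

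The members were then split by whether they had an Otp UMI. Members with Otp numbered 29 and 22, and those without it 31 and 22. Those without it were deeper, with medians of 2270 and 2969.5 UMIs against 1730 and 2172.5. Of 1752 genes with at least 15 member UMIs in each library, 7 were at least 2-fold higher with Otp in both libraries and 7 lower. The higher ones were Tle4 (17 against 4 control and 15 against 4 Sim1 heterozygous UMIs), a corepressor, and Lmo4 (30 against 20 and 19 against 4), a LIM-domain cofactor, with Zic1, Nrp1, Rph3a, Hnrnph3 and Atp6v0a1. Of the other 7, Hs6st2 was the lowest in the control library, with 9 UMIs in cells with Otp and 92 in those without. In the Sim1 heterozygous library it had 23 and 49 UMIs, and Klf6, Tomm7, Ndufs8, Tcf4 and Epb41l1 were lower than Hs6st2. The log2 ratio of Hs6st2 was -2.56 and -1.12. Cells with Hs6st2 numbered 3 with Otp and 10 without it in the control library, and 5 and 7 in the Sim1 heterozygous library. With Hs6st2 stood Ndufs8, Psmd8, Tcf4, Epb41l1, Tomm7 and Klf6. Intervals took in 0 in at least 1 library for Rph3a, Nrp1, Atp6v0a1, Ndufs8, Psmd8, Tcf4 and Klf6. Of the 19 Sim1 heterozygous Lmo4 UMIs in cells with Otp, 11 came from 1 cell.

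The split was then made by Hs6st2, which was chosen from the split by Otp, so the Otp values here restate that observation in the same cells and have no test. At least 2 Hs6st2 UMIs were found in 11 control and 9 Sim1 heterozygous members, and 0 in 47 and 32. The former were deeper, with medians of 3669 and 3640 UMIs against 1730 and 2067.5, with medians of 54.8 and 54.4 Sst UMIs per 10000 against 57.8 and 63.6. Summed Sst was lower per depth, with a log2 ratio of -0.29 (interval -0.53 to -0.059) and -0.25 (-0.52 to -0.0030). Members were chosen by a minimum of Sst UMIs at any depth, which asks for more Sst per depth in shallower cells. The deeper cells with Hs6st2 can thus be lower by the choice alone, so no difference in Sst is read from these values. Otp was found in 2 of 11 and 3 of 9 of the members with at least 2 Hs6st2 UMIs, against 26 of 47 and 17 of 32. The level of Otp was 38.9 and 149 CPM against 574 and 585.

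**Figure D4:**
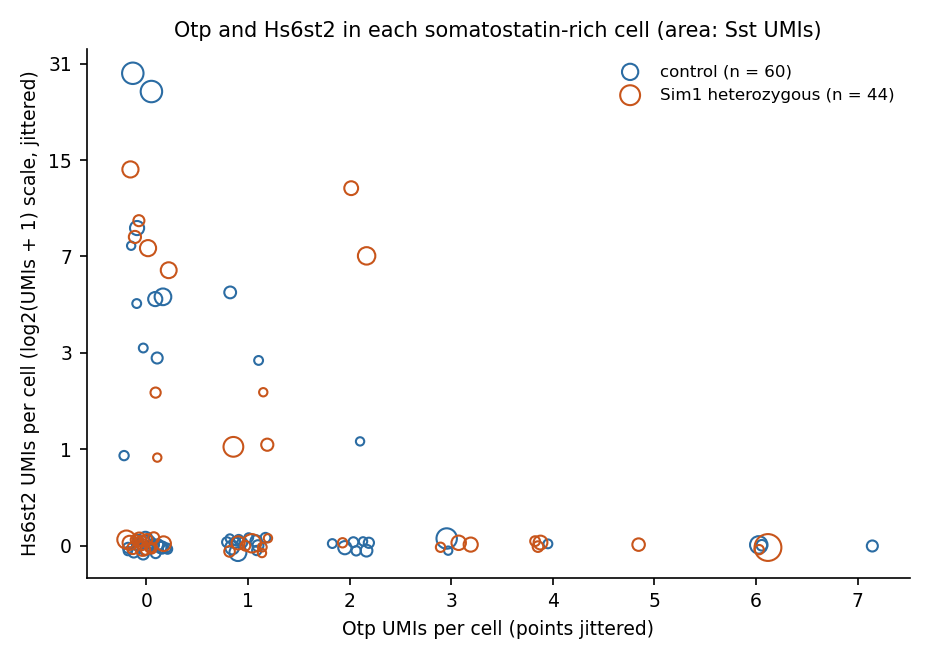
Otp UMIs (x axis) and Hs6st2 UMIs (y axis, log2(UMIs + 1) scale) of each of the 104 members, jittered, with point area set by Sst UMIs. Cells with at least 3 Otp UMIs lie at 0 Hs6st2 UMIs, and the 2 cells with the most Hs6st2 have no Otp.

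Cck, the cholecystokinin precursor, went with Hs6st2. Of its 33 control UMIs, 23 were in the 11 members with Hs6st2 and 3 in the 47 without, and of its 35 Sim1 heterozygous UMIs, 30 were in the 9 and 1 in the 32. The log2 ratio was 3.51 (interval 2.14 to 6.24) and 5.21 (3.58 to 11.5), from 8 of 11 and 5 of 9 cells. Cck and the genes named next are a selection from this split, without the share of all genes that differed as much. Cbln2, a secreted organiser of synapses, was at 1.93 and 1.73, and Pcdh17, a protocadherin, at 1.46 and 1.63. Nefm, a neurofilament, was at 1.02 and 2.84, and Car10, a carbonic anhydrase relative, at 1.23 and 2.33. In control cells with Hs6st2, 13 of 31 Cbln2 UMIs and 14 of 32 Nefm UMIs came from 1 cell each. Lower with Hs6st2 were Dlk1, with 1 and 0 UMIs against 27 and 13, Tle4, with 1 and 1 against 20 and 18, and Lmo4, with 6 and 0 against 43 and 23. These UMIs are from 11 and 9 cells against 47 and 32. In CPM, Dlk1 was at 19.5 and 0 against 277 and 162, and Tle4 at 19.5 and 29.8 against 205 and 224. Lmo4 was at 117 and 0 against 441 and 286. Tle4 and Lmo4 were already named in the split of the same cells by Otp, so their values restate that observation. Sim1 did not differ detectably, with 5 and 4 UMIs against 13 and 11 (log2 ratio -0.30 and -0.01). Peg10 was at 0.54 (interval -0.06 to 1.12) and 1.73 (0.92 to 2.61), and Asb4 at -0.26 (-1.57 to 0.78) and -0.78 (-2.12 to 0.17). For these neighbours only the Peg10 interval in the Sim1 heterozygous library left out 0.

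Hs6st2 was not limited to somatostatin-rich cells. At least 5 Hs6st2 UMIs were found in 44 control and 37 Sim1 heterozygous cells, of which 8 and 7 were members and 15 and 11 had an Otp UMI. Among the control members, 72 of 101 Hs6st2 UMIs were in the 8 cells with at least 20 Sst UMIs, in 5 of these cells. Of the 72, 28 came from 1 cell with 9126 UMIs in all and 25 from 1 cell with 6923. In the Sim1 heterozygous library, 36 of 72 Hs6st2 UMIs were in the 13 cells with at least 20 Sst UMIs.

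Finally the members of the 2 libraries were compared with each other. Of 2119 genes with at least 30 UMIs over all members, 63 were at least 2-fold higher in the Sim1 heterozygous members (2.97%) and 39 lower (1.84%), with a median log2 ratio of 0.02. Intervals left out 0 for 58 of the 63 and 38 of the 39. Only 3 of the higher and 6 of the lower genes differed by 2-fold in the same direction in all other cells. The genes were called in the members alone, so a smaller ratio in other cells can come from that choice. Without the Sim1 heterozygous member with the most UMIs of each gene, a step that can only lower these ratios, 21 genes were higher.

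The 3 higher genes that also differed in other cells were named by the size rule. Hspa8, a constitutive heat shock chaperone, had 5 control and 43 Sim1 heterozygous UMIs, a log2 ratio of 3.21 (interval 2.10 to 5.13), with 4.01 in other cells. Cwc22, a splicing factor, had 21 and 55 UMIs, a ratio of 1.68 (0.97 to 2.52), with 1.85 in other cells. Hmgb1, a chromatin protein, had 7 and 25 UMIs, a ratio of 2.03 (0.92 to 3.62), with 1.03 in other cells. For these the members differed along with the other cells of their library, and a difference of preparation and one of genotype cannot be told apart.

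The other 5 higher genes, chosen by their ratio in the members, differed less in other cells, and that contrast was not tested. Ntrk2, the receptor of brain-derived neurotrophic factor, had 14 and 38 UMIs in 12 and 19 members, 89.7 and 307 CPM. Its log2 ratio was 1.71 (interval 0.86 to 2.77), with 0.30 in other cells (0.17 to 0.44). Pcsk2, a prohormone convertase that can process prosomatostatin, had 8 and 24 UMIs, 51.2 and 194 CPM, a ratio of 1.81 (0.72 to 3.28), with 0.46 in other cells. It was at 0.13 when only members with at least 10 Sst UMIs were compared. Spock3, a matrix proteoglycan, was at 1.60 (0.68 in other cells), Tmem91, a membrane protein, at 1.66 (0.25), and Dtd1, a proofreading enzyme of transfer RNAs, at 1.19 (0.01).

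Of the 8 lower genes, Npy and Chchd10 leaned on single control cells. Npy had 34 control and 0 Sim1 heterozygous UMIs, at least 8.99-fold lower, with 29 of the 34 in 1 cell and a log2 ratio of 0.62 in other cells. Chchd10, a mitochondrial protein, had 40 and 9 UMIs, 15 of the 40 in 1 cell, a ratio of -1.70 (interval -3.05 to -0.75), with 0.20 in other cells. Tpi1, a glycolytic enzyme, had 61 and 21 UMIs in 26 and 20 members, a ratio of -1.16 (-1.99 to -0.47), with -0.09 in other cells. The others were Sobp (-1.81), Upf3b of nonsense-mediated decay (-1.58), Aimp1 of the transfer RNA synthetase complex (-1.56), Spin1 (-1.34) and Rufy2 (-1.25). Rufy2 overlaps Hnrnph3 and Aimp1 overlaps Tbck on the other strand, so reads of each pair may have been shared.

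Hs6st2, Cd47, Peg10 and Asb4 each differed by less than 2-fold between the members of the libraries. The log2 ratio of Sim1 heterozygous over control members was -0.15 for Hs6st2 (interval -0.61 to 0.30), 0.20 for Cd47 (-0.23 to 0.62), -0.59 for Peg10 (-1.08 to -0.15) and 0.66 for Asb4 (0.06 to 1.27). In other cells the ratio was -0.43 for Peg10 and 0.48 for Asb4, in the same directions. Otp was at 0.18 in the members (interval -0.38 to 0.74) and at -0.67 in other cells (-0.77 to -0.57), and these intervals did not overlap. The difference between them was not tested.

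**Figure D5:**
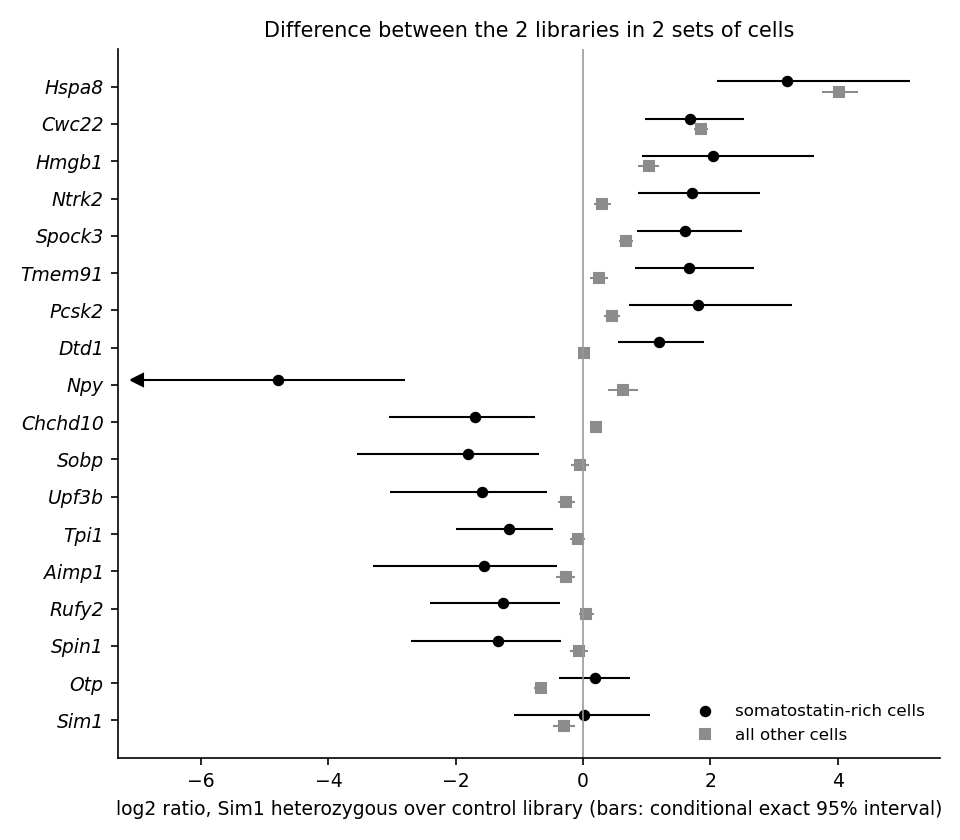
Log2 ratio of the Sim1 heterozygous over the control library (x axis) for the 16 named genes, Otp and Sim1, in members (circles) and all other cells (squares), with conditional exact 95% intervals. The arrow marks the open interval of Npy, which had 0 UMIs in the Sim1 heterozygous members. Hspa8, Cwc22 and Hmgb1 are past 2-fold in both sets of cells, and Otp is at 0.18 in members and -0.67 in other cells.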

How the data were processed

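The authors deposited raw UMI counts per gene and barcode, 1 table for each library and 1 merged table with identical counts. STAR 2.6.0b, bcl2fastq, Picard, Seurat 3 and mm10 are named, per the submitters' processing notes. Not given in the sources used here were annotation, counter, strand use and cell calling. From these counts, barcodes with at least 300 genes were kept (2806 control, 2454 Sim1 heterozygous), and members were taken by the rule above. The members, gene lists and alternatives were chosen with earlier results of these data known.

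Levels are UMIs summed over cells per 1000000 (CPM). Ratios used a pseudocount of 1 UMI and conditional exact intervals, levels exact Poisson intervals and shares Clopper-Pearson intervals, all at 95%. A count of 0 was given a floor of 3. Shares of cells were also taken after thinning each cell to 857 UMIs, which left out shallower cells. Named genes were the 15 higher and 8 lower (members against other cells), and the 8 higher and 8 lower (Sim1 heterozygous against control), whose interval bound nearest to 0 was farthest from 0, taking the less extreme library. Up to 4 genes of each list, Otp, Sim1 and the somatostatin receptors were added. The count over the mammillary list is not reported here. Sst, Crh, Avp, Oxt, mitochondrial, ribosomal, haemoglobin, X-inactivation, Y-linked, pseudogene and clone-named genes were left out. Promoters came from RefSeq (GRCm38.p6) and coordinates from GENCODE M21. The interval code was tested on simulated data. Alternatives changed the cell rule, comparison cells, scaling, pseudocount, count filter and thinning. Python 3.11.15, numpy 2.4.6, scipy 1.17.1 and pandas 2.3.3 were used.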

Additional observations from a re-analysis of the deposited data

Results flagged for a closer look

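Npy, a neuropeptide precursor, was higher in members than in other cells of the control library (log2 ratio 2.38) and lower in the Sim1 heterozygous library (-3.03), so the 2 libraries went opposite ways. The difference between the libraries was not tested. Without the 1 control cell that held 29 of the 34 UMIs, the control ratio was -0.16.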

How the results depend on the processing

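The share of members was 2.40% of Sim1 heterozygous cells with at least 3 Sst UMIs, 0.927% (control) and 1.10% with at least 10, 2.47% of Sim1 heterozygous cells with at least 800 genes, and 1.13% and 1.03% after thinning. The ratio of shares turned to 1.19, 1.12 and, thinned with at least 2 Sst UMIs, 1.03. The count of genes higher in members than in other cells was 153 with at least 10 Sst UMIs, 110 by mean CPM per cell (131 lower), 38 with median scaling and 433 with a minimum of 30 UMIs. The lower count was 120 with a pseudocount of 0.5 UMI. Added after seeing the data, 18 and 39 genes had intervals that left out 0, and 35 were lower against cells with Otp. Leaving out each gene's top member cell, which lowers every ratio by construction, gave 10 higher and 314 lower. Otp was at 0.67 and 1.40 by mean CPM per cell. Between the libraries' members, 118 genes were higher and 86 lower with at least 10 Sst UMIs, and 141 and 121 after thinning. With a minimum of 10 UMIs they were 402 and 289, and by mean CPM per cell 68 were lower. Without each gene's top Sim1 heterozygous cell, which can only lower these ratios, 21 were higher. For most of these the cause was not tested; lower minimums test more genes. Of 335 named-gene values under alternatives, 319 kept their direction within the reach of the main interval, 13 moved beyond it and 3 reversed. The reversed values were Sphkap at -0.28 with at least 10 Sst UMIs, and Pmch at 0.41 and Fabp7 at 0.044 against cells with Otp. These labels do not follow the 2-fold limit. Of the 23 genes named against other cells, from 8 to 23 stayed past 2-fold, by setting. Of the 16 named between the libraries' members, from 13 to 16 did. No paired analysis was possible because each genotype had 1 library. With 104 cells, genes under about 2 expected member UMIs could not be resolved.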
